A study of Mus musculus with 12 samples.

Results

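The caudal epididymis, the tail segment where sperm are stored, was compared with the vas deferens, the muscular duct that follows it, by RNA sequencing of adult mouse tissue. A gene was taken as epididymis-high when its log2 value in the epididymis lay 2 or more units (4-fold) above its value in all 5 vas deferens libraries, and as epididymis-low when it lay 2 or more units below all 5. Of 31669 genes, 570 were epididymis-high and 188 were epididymis-low, 758 members in all. Genes were called measured if the library with the highest value had at least 20 normalised reads, or if no level could be derived and nothing pointed to a low read count. Of 17011 measured genes, 434 (2.55%) were epididymis-high and 178 (1.05%) were epididymis-low, and the counts below refer to these genes. The other 136 high and 10 low members fell below that minimum. At a threshold of 1 unit, 978 genes (5.75%) were higher and 613 (3.6%) lower than in all 5. A high member whose level could be read passed through its epididymis value, so the minimum and the rule are linked for such genes.

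The series holds 12 libraries, 6 male and 6 female, and was made to describe what mutation of the Hox9 to Hox11 genes of the Hoxa and Hoxd clusters does to gene expression in the reproductive tract. All mice had the strain background CD1/129 and were 3 to 7 months old. The epididymis came from wild-type (WT) mice. The 5 vasa deferentia came from WT mice, from mice homozygous for mutant Hoxa9, Hoxa10 and Hoxa11 (Hoxa-null), from such mice that were also heterozygous for mutant Hoxd9, Hoxd10 and Hoxd11 (compound Hoxa-null), from mice homozygous for the Hoxd mutations (Hoxd-null), and from such mice that were also heterozygous for the Hoxa mutations (compound Hoxd-null). The kind of allele is not given in the labels, so a mutant gene may still give counted reads. Each library was made from RNA pooled from 3 animals, and there was 1 library per group, so no value below has a replicate error and no test was made. The 5 vasa deferentia differ in genotype and are not replicates. Their range is given as the only spread there is, and all 5 comparisons share the single epididymis library.

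The deposited values are log2 values centred on the median of the 6 male libraries for each gene. They give differences between libraries but no level that can be compared between genes. A library without reads for a gene stands at 1 normalised read, called the floor here, and a difference from the floor is smaller than the true contrast. A single read was worth 1.351 normalised reads in the epididymis and between 0.7043 (WT) and 1.293 (compound Hoxd-null) in the vasa deferentia, so the libraries differed up to 1.92-fold in relative depth and the epididymis was the shallowest. In every vas deferens but the compound Hoxd-null a single read was worth less than 1 normalised read, so there it cannot be told from no read. Per the file headers, the compound Hoxd-null vas deferens was sequenced in the same run as the epididymis, in a different lane, and the other 4 vasa deferentia in another run. In bulk tissue, fewer cells of a type and less RNA per cell cannot be told apart.

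The epididymis and the vas deferens both form from the Wolffian duct. The epithelium of the epididymis secretes proteins that coat and protect maturing sperm, among them beta-defensins, cysteine-rich secretory proteins and protease inhibitors, and its clear cells acidify the lumen. The vas deferens has a thick smooth muscle coat that propels sperm at ejaculation, and posterior Hox genes are expressed in overlapping domains along both. Sperm themselves carry remnant RNA of late spermatids, such as that of the protamines and transition proteins that package sperm DNA.

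The epididymal beta-defensins on chromosome 2 included the longest run of neighbouring high genes with official names only. Defb23, Defb20, Defb22, Defb26 and Defb29, small cationic secreted peptides, start between 152284886 and 152364450 (mm9), and 5 of the 6 measured genes in this stretch were epididymis-high. The 120 bases upstream of their annotated start sites are shown because the members lie together and are set apart together, and those of Th because it encodes tyrosine hydroxylase, the first enzyme of noradrenaline synthesis and a known target of cAMP signalling. The sequences are from RefSeq (GRCm38.p6), 5′ to 3′ on the strand of the gene, at chr2:152464621-152464740 (minus), chr2:152511737-152511856 (minus), chr2:152476943-152477062 (plus), chr2:152490139-152490258 (minus), chr2:152540042-152540161 (minus) and chr7:142899996-142900115 (minus). Capitals mark CCAATAAA, a site bound by posterior Hox proteins, in the defensins and TGACGTCA, the cAMP response element, in Th.
Defb23: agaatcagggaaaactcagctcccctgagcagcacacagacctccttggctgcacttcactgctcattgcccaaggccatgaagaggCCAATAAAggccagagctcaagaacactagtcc
Defb26: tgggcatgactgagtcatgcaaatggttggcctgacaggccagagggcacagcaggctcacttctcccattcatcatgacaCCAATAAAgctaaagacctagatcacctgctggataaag
Defb20: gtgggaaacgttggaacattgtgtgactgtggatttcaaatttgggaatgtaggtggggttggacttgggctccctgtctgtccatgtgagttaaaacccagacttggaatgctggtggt
Defb22: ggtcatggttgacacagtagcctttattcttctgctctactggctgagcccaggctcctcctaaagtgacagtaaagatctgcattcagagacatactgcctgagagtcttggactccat
Defb29: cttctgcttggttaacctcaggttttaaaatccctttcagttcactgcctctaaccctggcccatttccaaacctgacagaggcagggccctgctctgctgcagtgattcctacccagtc
Th: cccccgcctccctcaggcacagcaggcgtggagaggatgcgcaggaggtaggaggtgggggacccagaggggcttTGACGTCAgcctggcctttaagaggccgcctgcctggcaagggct
CCAATAAA began 33 bases before the start site in Defb23 and 39 bases before it in Defb26, and it shares its last letters, ATAAA, with the TATA box TATAAA. Searched on both strands over 250 bases upstream, CCAATAAA was in 0.987% of the 304 high members with a promoter in the table, in 0.877% of 114 low members, in 0.784% of 12498 measured genes and in 1.1% of all 27025 promoters. TATAAA was in 16.1% of high members, 10.5% of low members, 7.67% of measured genes and 13.0% of all promoters. TGACGTCA was in 1.64% of high members, 1.75% of low members, 2.54% of measured genes and 1.62% of all promoters. These differences were not tested. The full palindromic androgen response element, with no mismatch allowed, was in 1 high member, Acnat2, and in no other promoter of the table. A match describes letters only and shows no binding.

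Neuropeptide Y, a transmitter of sympathetic nerves, had the widest gap above the vasa deferentia of all high members. Npy (Gene ID 109648, chromosome 6, start 49772728, mm9) stood at 9.41 in the epididymis. In the vas deferens it was at 1.18 for the WT, -1.24 for the Hoxa-null, -2.12 for the compound Hoxa-null, -0.57 for the Hoxd-null and 0.57 for the compound Hoxd-null library. The difference was 8.23 from the nearest vas deferens, that of the WT, and 9.98 from the median of the 5, and the epididymis lay far outside their range. The vas deferens values below follow the same order of genotypes.

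Beta-defensins, a brush border gene and a cytochrome P450 were among the next high genes. Defb22 (Gene ID 442835, chromosome 2) stood at 8.55 in the epididymis and at -0.54, 0.32, 2.59, -2.53 and -0.32 in the vasa deferentia, a gap of 5.96. Defb23 (Gene ID 629114, chromosome 2) stood at 7.57 against -0.83, -0.09, 0.09, 1.63 and -0.95, a gap of 5.94. The highest vas deferens was the compound Hoxa-null for Defb22 and the Hoxd-null for Defb23, so the 2 neighbours did not share the nearest library. Cdhr2, a cadherin of the microvillar brush border, had 645 normalised reads in the epididymis and at most 9.73 in a vas deferens. Cyp2c39, a cytochrome P450, had 611 normalised reads against at most 9.69. The gaps to the nearest vas deferens were 6.05 and 5.98. For Cdhr2 3 and for Cyp2c39 2 vasa deferentia stood at the floor, and only the differences from those libraries understate the contrast.

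Some high members stood at the floor in every vas deferens, which does not exclude a single read there, except in the compound Hoxd-null library. All 5 vasa deferentia stood at the floor for 17 high members. Cabp7, a calcium-binding protein, reached 88.1 normalised reads in the epididymis. Gzmc, a granzyme, reached 58.3, Cstl1, a cystatin-like gene, 58.1, Chrng, the fetal subunit of the muscle acetylcholine receptor, 52.7, and Olfr1338, an olfactory receptor, 47 normalised reads. With at most 65.2 reads behind any of these 5 values, they are the least precise of the leading genes. Granzymes and olfactory receptors have close relatives that may share reads. The leading 15 also held Oxct2a, a germ cell enzyme of ketone body use (197 against at most 3.23 normalised reads), Abcc8, the sulfonylurea receptor of potassium channels (gap 5.92), Fga, the fibrinogen alpha chain (gap 5.68), Dgkk, a diacylglycerol kinase (gap 5.67), and Ttc24 (gap 5.60).

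Among the low members the widest named gap was that of Nrk, a protein kinase, which stood at -7.83 in the epididymis and at 1.72, -0.71, -0.97, 1.16 and 0.71 in the vasa deferentia, 6.86 below the lowest of them. Genes of seminal fluid proteins and of a vas deferens protein were among the next. Semg1, a semenogelin of seminal fluid, stood at -5.77 against -0.13, 3.51, 3.11, 0.13 and -0.27, and Svs5, a seminal vesicle secretory protein, at -4.76 against 0.13, 3.32, 2.77, -0.13 and -0.58. Both Hoxa-null libraries held the highest values of both genes, while the other 3 vasa deferentia lay within 1 unit of each other. Akr1b7, the aldo-keto reductase known as mouse vas deferens protein, stood at -4.79 against 1.22, -0.07, -0.33, 1.59 and 0.07. For Akr1b7 the order was the other way round, with the WT and Hoxd-null libraries highest.

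The low genes with the widest gaps also included 2 keratins and 1 cornified-envelope gene. Krt78 stood at -6.26 against vas deferens values between -0.27 and 0.26, and Krt79 at -4.88 against values between -0.20 and 0.26. The 5 vasa deferentia were close together for these keratins and the epididymis stood alone. With Krt4 these keratins formed a run of 3 neighbouring low genes on chromosome 15. Sprr2f, a cornified-envelope protein of a family with similar sequences, had a gap of 5.48. The list of basal and stratified squamous epithelium, which holds none of these genes, had no low member among 14 measured and a median of -0.06. Its keratin gene Krt13 came close, at 1.95 to 3.43 below the 5 vasa deferentia, while its Dsg3 lay 1.73 to 3.35 above them. The remaining low genes of the leading 15 were the lactate receptor Gpr81 (gap 4.89), the potassium channel Kcnj16 (4.89), the drug efflux pump Abcg2 (4.55), the secreted protein Nell2 (4.21), Ano4 (4.19), the posterior Hox gene Hoxd13 (4.18), the complement receptor Cr2 (4.17) and Slc44a5 (4.14). For Slc44a5 the epididymis stood at the floor, with 17.7 to 60.7 normalised reads in the vasa deferentia.

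**Figure D1:**
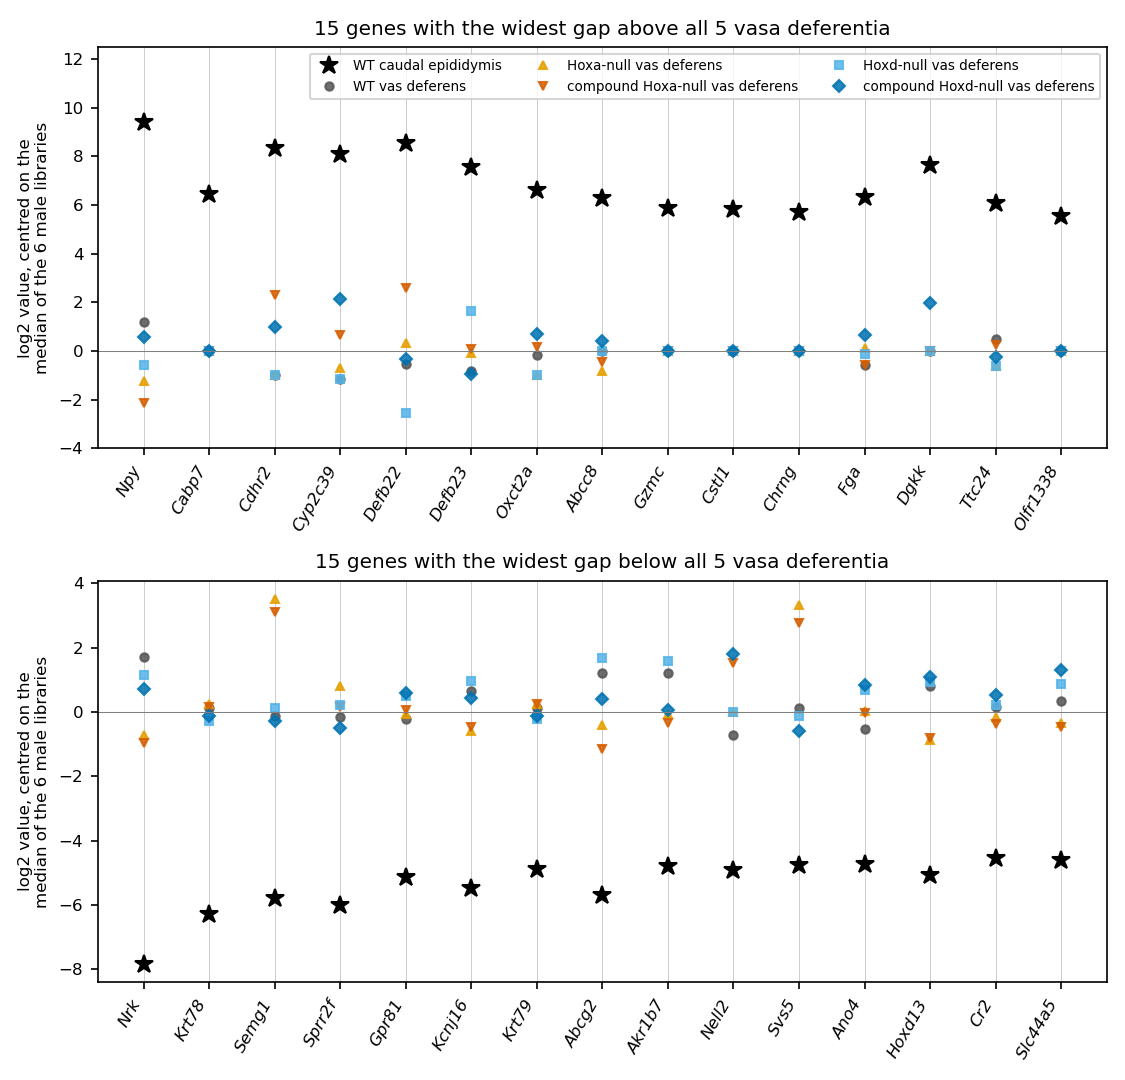
Deposited log2 values, centred per gene on the median of the 6 male libraries, for the 15 officially named genes with the widest gap above (top) and below (bottom) all 5 vasa deferentia. Stars are the single epididymis library and other symbols the 5 vas deferens libraries, which range from -2.12 to 1.18 for Npy while the epididymis is at 9.41.

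Gaps ranged from the threshold to 8.23 among high and 7.70 among low members, with medians of 3.05 and 2.70. A gap of 4 or more was found for 93 high and 25 low genes. The members closest to the threshold were Etnk2 (2.0013), Prrg3 (2.0019) and Card9 (2.0069) just inside and Pklr (1.9988), Wfdc13 (1.9969) and Tssk3 (1.9904) just outside on the high side. On the low side Tusc5 (2.0024), Kif23 (2.0027) and Ghr (2.0225) were just inside and Idh1 (1.9875), Xylt1 (1.9772) and Prf1 (1.9741) just outside. Official symbols were held by 297 high and 140 low genes, and the rest had predicted or Riken names. Names that Riken gave to clones of testis libraries were held by 12.4% of high members (54 genes), 0.562% of low members (1 gene) and 2.23% of all measured genes. Neighbouring high members further included Tnp2, Prm2 and Prm1 on chromosome 16, Spag11a, Defb14 and Defb6 and, apart from them, Xkr5, Defb38 and Defb39 on chromosome 8, and Iqcf1, Iqcf3 and Iqcf4 on chromosome 9. The longest run of low members, on chromosome 1, held the lens crystallin genes Crygc, Crygb and Cryga with 2 Riken genes. The X chromosome held 31 high members, 4.87% of its measured genes, against 2.55% of all measured genes. It had the highest share of any chromosome. The autosomes ranged from 1.32% (chromosome 18) to 3.41% (chromosome 6), and the difference was not tested.

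Transcripts of spermatids and sperm were the group with the highest median difference among the lists. Of 20 measured genes, 9 were epididymis-high and 0 were low, and the median of the epididymis minus the median vas deferens was 3.98, against 0.01 over all measured genes. Tnp2, a transition protein, stood at 4.93 against 1.03, -3.58, -1.64, -1.03 and 1.28. Prm1, a protamine, stood at 4.74 against 0.89, -3.46, -4.26, -0.84 and 0.84, and Prm2 at 3.97 against 0.56, -4.80, -4.57, -0.56 and 1.23. These 3 genes were lowest in both Hoxa-null vasa deferentia, and the Prm2 values spanned 6.04 among the vasa deferentia. Tnp1, the other transition protein, was 3.73 above the highest vas deferens. Akap4, an anchoring protein of the sperm tail, and Gapdhs, the sperm glyceraldehyde-3-phosphate dehydrogenase, had gaps of 2.74 and 3.48. Other sperm genes did not pass. Ldhc, the germ cell lactate dehydrogenase, stood at 3.32 in the epididymis and at -2.02, 2.02, 4.58, -2.82 and -2.42 in the vasa deferentia, so that the compound Hoxa-null library lay above the epididymis and the Hoxa-null library 1.31 below it. Tcp11 stood at 3.86 against -0.59, 0.31, 3.01, -1.46 and -0.31, less than 2 units above the compound Hoxa-null library only. Adam3, Adam18 and Adam32, sperm surface proteins of the ADAM family, were likewise highest in the compound Hoxa-null vas deferens, with the epididymis at -0.67, -1.52 and -2.01 from that library. The amount of sperm in each duct was not recorded in the labels, and its part in these differences was not tested.

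Beta-defensins held 10 high and 0 low members among 26 measured genes, with a median difference of 2.94. Besides the chromosome 2 genes these were Defb39, Defb14, Defb38, Defb7 and Defb6, all on chromosome 8. Defb39 stood at 5.74 against -1.04, 2.17, 0.02, -0.02 and -0.65, and Defb14 at 4.14 against -1.41, 1.25, 1.38, -3.27 and -1.25. Both were lowest in WT or Hoxd-null vasa deferentia and highest in a Hoxa-null one. Not all defensins shared the direction. Defb30 stood at -1.94 in the epididymis and at 2.43, -1.10, -2.21, 1.10 and 1.20 in the vasa deferentia, so it overlapped their range, and Defb42 differed by -2.11 to -0.95 from the 5 vasa deferentia, below all of them. Several genes of this family have similar sequences and may share reads.

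Proteins that coat or mature sperm held 4 high and 2 low members of 27 measured, with a median of 2.20. Crisp4, a cysteine-rich secretory protein, stood at 5.70 against -3.24, -0.35, 1.14, -0.76 and 0.35. Adam7, an epididymal protein of the ADAM family, stood at 3.20 against -2.83, 0.36, 0.40, -2.34 and -0.36. Spag11a, a defensin-like sperm protein, passed narrowly with a gap of 2.02, and Teddm1, an epididymal membrane protein, stood at 4.48 with all 5 vasa deferentia at 0.00. The low members were Akr1b7, above, and Pate4, at -4.22 against -0.03, 3.00, 3.04, 0.03 and -0.56. Pate4 is also a seminal vesicle product, and it was again highest in both Hoxa-null libraries. Of 12 measured seminal vesicle and prostate genes, Semg1, Svs5 and Pate4 were low and Svs1 alone was high, at 4.41 against vas deferens values between -0.41 and 0.46. Of 14 Wfdc protease inhibitors, Wfdc3 alone passed, although 13 lay above the median vas deferens and the median difference was 2.43.

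Clear cell genes separated less sharply. Of 19 measured, Car4, a membrane carbonic anhydrase, and Atp6v0a4, a proton pump subunit, were epididymis-high, and the median was 0.80. Car4 had the widest range among the vasa deferentia of all named high members, 8.31, at -2.22, 0.69, 2.80, -5.52 and -0.69 against 5.88 in the epididymis. Foxi1, the transcription factor of proton-secreting cells, stood at 2.34 against -2.58, 0.52, 1.07, -1.54 and -0.52, above all 5 but by only 1.27 over the compound Hoxa-null library. The proton pump subunits Atp6v1g3, Atp6v0d2 and Atp6v1b1 were also above all 5, by 1.29, 1.31 and 0.92. Of markers of the initial segment and caput, the first parts of the epididymis, 2 of 11 measured were high, Crisp4 and Ovch2, and none was low. Gpx5, a secreted glutathione peroxidase of the caput, stood at 0.69 against -3.92, 1.10, 0.40, -4.50 and -0.40, within the range of the vasa deferentia.

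Steroid, transport and nerve genes added single members. Cyp17a1, an enzyme of androgen synthesis, was the only high gene of 20 measured steroid receptors and enzymes, at 6.35 against -2.11, 0.76, 3.75, -1.67 and -0.76. Of 26 ion and water transporters, the chloride exchanger Slc26a3 was high (gap 2.18), and the water channel Aqp2 and the sodium-glucose carrier Slc5a1 were low (gaps 2.87 and 2.86). Agtr2, the angiotensin II type 2 receptor, was the only high gene of 30 measured receptors of contraction, at 7.02 against -0.68, 2.96, -0.35, -0.20 and 0.20. Npy was 1 of 3 high genes among 18 of neurons and glia, with Nos1, the neuronal nitric oxide synthase (gap 3.64), and Th (gap 2.41). The median of that list was -0.53, and its other members were mixed. Snap25, a protein of synaptic vesicle release, stood at 3.03 against 0.58, -0.58, -1.64, -1.71 and 4.47, above every vas deferens but the compound Hoxd-null, and the growth cone gene Gap43 was above all 5 by 0.11 to 2.41. The synaptic vesicle gene Syt1 and the peripheral filament gene Prph were below all 5, at -1.86 and -0.50 from the lowest. Whether nerve content had a part in the Npy value was not tested.

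Markers of the muscle coat and of fat lay lower in the epididymis. No smooth muscle gene of 30 passed the rule, but 28 lay below the median vas deferens and the list median was -1.20. Myocd, the smooth muscle transcriptional coactivator, stood at -1.50 against 0.78, -0.95, -0.70, 0.87 and 0.70, and the myosin kinase gene Mylk at -1.44 against 0.64, -0.36, -0.26, 1.12 and 0.26. The epididymis was below all 5 for both genes, and both Hoxa-null libraries were the nearest. All 13 adipocyte genes lay below the median vas deferens, with a median of -2.97, and the lipid droplet gene Cidec passed the rule. Adiponectin (Adipoq) stood at -2.95 against -1.17, 1.47, 1.48, -1.12 and 1.12, so WT and Hoxd-null vasa deferentia were nearest. Skeletal muscle genes had a median of -2.00 over 16 genes, of which the troponin gene Tnnc2 was low, and the fast myosin gene Myh4 stood at -1.79 against 1.79, 6.17, 6.14, -2.89 and -3.14. The part of muscle, fat or adjoining tissue in the other differences was not tested. Markers of endothelium (median -0.73 over 14 genes), fibroblasts and matrix (-0.14 over 20), macrophages and dendritic cells (-0.33 over 16), basal and stratified squamous epithelium (-0.06 over 14) and simple secretory epithelium (-0.10 over 20) had no member in either direction. The cell cycle list had none either, with a median of -1.11 over 22 genes. With 2.55% of all measured genes high and 1.05% low, the lack of members in lists of these sizes is close to the general share.

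Patterning genes were few among the members and mostly low. Of 34 measured Hox genes, Hoxd13, Hoxa13 and Hoxd12, from the posterior ends of their clusters, were epididymis-low and none was high. Hoxd13 (Gene ID 15433, chromosome 2, start 74506367, mm9) stood at -5.06 against 0.80, -0.88, -0.80, 0.95 and 1.09. Hoxa13 (Gene ID 15398, chromosome 6, start 52208852) stood at -3.80 against 1.95, -1.60, -1.66, 1.60 and 2.26, and Hoxd12 (Gene ID 15432, chromosome 2, start 74513087) at -2.76 against 0.63, -0.43, -0.45, 0.43 and 0.77. For all 3 genes both Hoxa-null vasa deferentia were nearest to the epididymis, and the gaps were 4.18, 2.14 and 2.32. Hoxc11 differed by -1.76 from the nearest vas deferens and did not pass. Hoxa3, from the anterior part of its cluster, lay 1.30 above all 5. For the mutated genes themselves the epididymis stood at 0.53 for Hoxa9, -0.21 for Hoxa10, -0.34 for Hoxa11, 0.70 for Hoxd9, -0.18 for Hoxd10 and -0.36 for Hoxd11. It lay within the range of the vasa deferentia, apart from Hoxd10, where it was just below. That range includes libraries mutant for these genes, so lying within it does not compare the epididymis with the WT vas deferens. Against the WT vas deferens alone, 6 of the 34 Hox genes were 2 or more units higher and 3 lower, beside 9.35% and 3.98% of all measured genes.

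**Figure D2:**
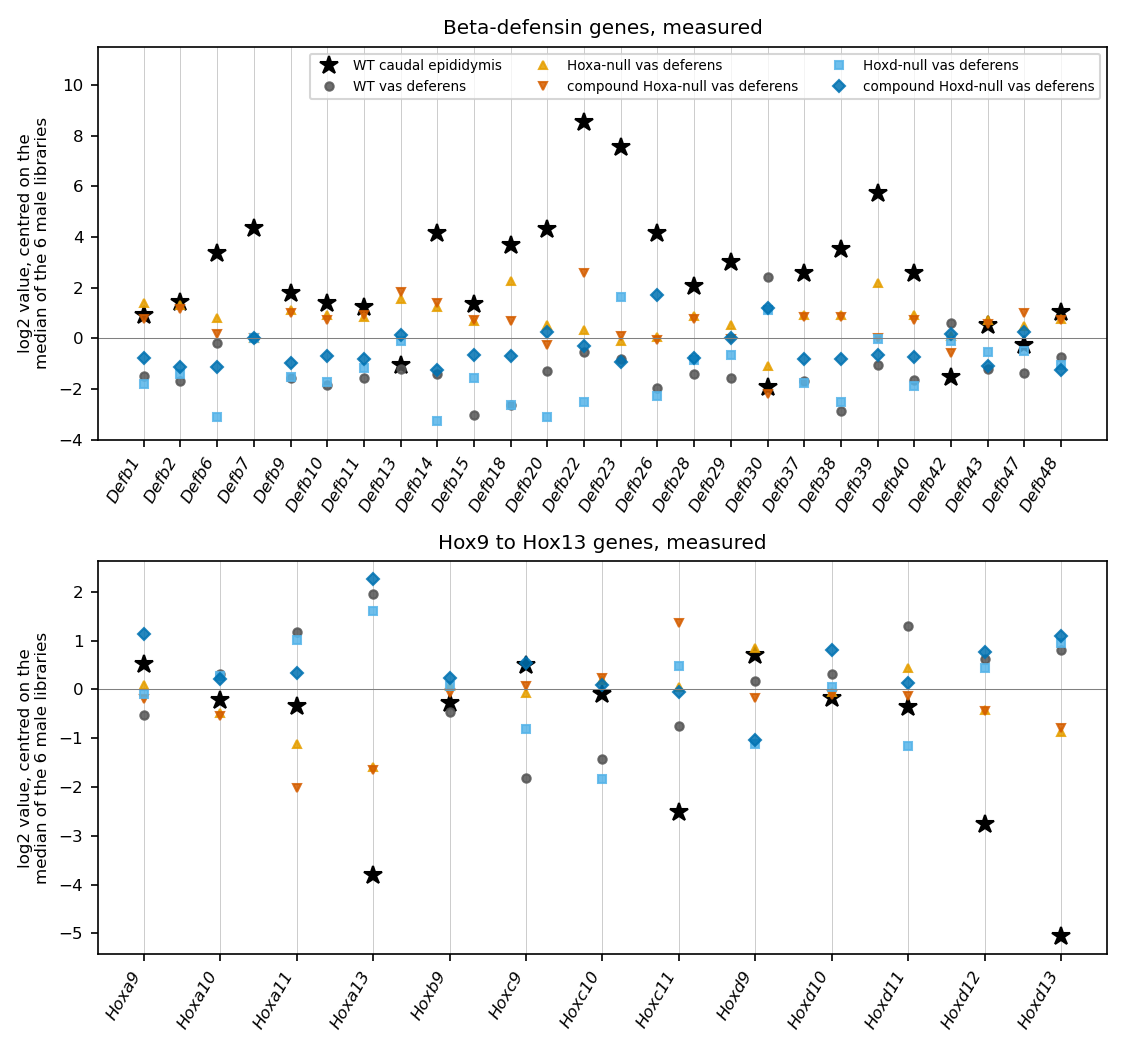
Deposited log2 values, centred per gene on the median of the 6 male libraries, of all measured beta-defensin (top) and Hox9 to Hox13 genes (bottom), with stars for the epididymis and other symbols for the 5 vasa deferentia. The star stands apart above for 10 defensins such as Defb22 (8.55) and apart below for Hoxa13 (-3.80), Hoxd12 (-2.76) and Hoxd13 (-5.06).

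Of 32 other transcription factors of the urogenital ducts, Eya1 and Foxa1 were low and none was high. Eya1, a transcriptional coactivator of kidney and duct development, stood at -5.09 against 0.91, -1.30, -0.91, 1.05 and 1.49, and Foxa1, a forkhead factor of duct epithelia, at -2.65 against values between -0.33 and 0.20. In the BMP and TGF-beta pathway the ligand Bmp3 was low (gap 3.55) and the ligand Gdf11 was high (gap 2.29). Fgf10, a ligand of duct growth, was the only low gene of 21 in the fibroblast growth factor pathway, at -3.08 against values between -0.47 and 0.38. No gene of 39 in the Wnt pathway and none of 18 in the retinoic acid pathway passed in either direction. Over all measured genes 2.55% were high and 1.05% low, so having no member in lists this short is close to that share.

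The 5 vasa deferentia were not equally far from the epididymis. In the epididymis 1590 genes (9.35%) were 2 or more units above the WT vas deferens and 677 (3.98%) below it. Against the Hoxa-null library the counts were 1002 (5.89%) and 530 (3.12%), and against the compound Hoxa-null library 651 (3.83%) and 663 (3.9%). Against the Hoxd-null library they were 1674 (9.84%) and 691 (4.06%), and against the compound Hoxd-null library 1481 (8.71%) and 829 (4.87%). The number of higher genes was thus smallest against both Hoxa-null libraries, while the number of lower genes was smallest against the Hoxa-null library alone. The compound Hoxa-null vas deferens was the nearest library for 171 of the 434 high members, the compound Hoxd-null for 102, the Hoxa-null for 87, the WT for 53 and the Hoxd-null for 21. Without the compound Hoxa-null library the rule would have given 751 high members, 317 more.

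**Figure D3:**
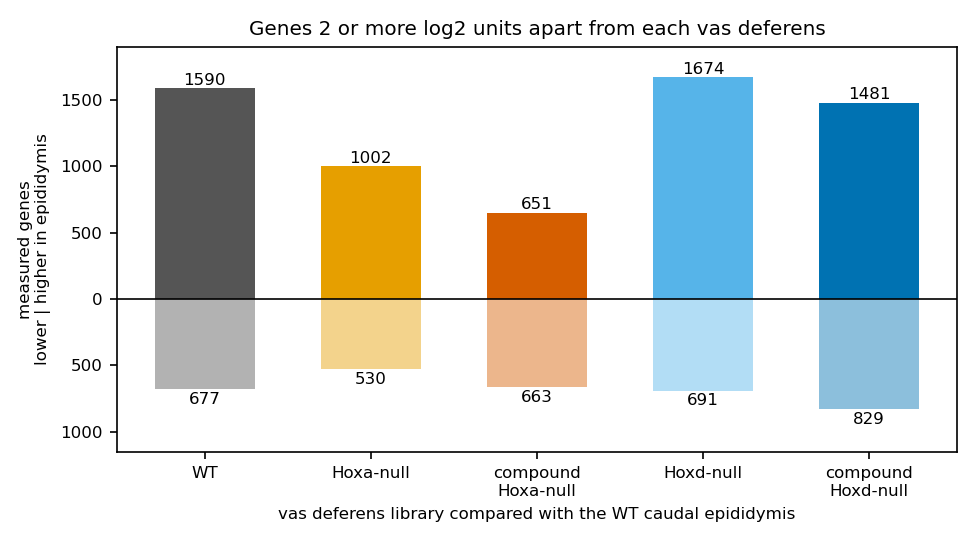
Number of measured genes 2 or more log2 units higher (up) or lower (down) in the single epididymis library than in each vas deferens library. The bars for higher genes fall from 1590 for the WT to 1002 and 651 for the Hoxa-null and compound Hoxa-null vasa deferentia, while the Hoxd-null bar is at 1674.

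The genes apart from the WT vas deferens were followed into the mutants. These comparisons share the epididymis library, and the genes were chosen on the WT vas deferens, so a smaller difference against any other library would follow from the choice alone to some degree. Of the 1590 genes, 1411 (88.7%) were still 2 or more units higher than the Hoxd-null vas deferens, 1205 (75.8%) than the compound Hoxd-null, 838 (52.7%) than the Hoxa-null and 520 (32.7%) than the compound Hoxa-null. A difference under 1 unit was left for 30, 109, 316 and 770 of them in the same order. Chosen on the Hoxd-null library instead, 1411 (84.3%) of 1674 genes were still apart from the WT vas deferens, but 852 (50.9%) from the Hoxa-null and 551 (32.9%) from the compound Hoxa-null. Of the 677 genes lower than in the WT vas deferens, 488 (72.1%) were still apart from the Hoxd-null, 475 (70.2%) from the compound Hoxd-null, 286 (42.2%) from the Hoxa-null and 267 (39.4%) from the compound Hoxa-null library. With either choice, fewer genes remained apart from the Hoxa-null libraries than from the others.

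The same counts for the gene lists are to be read beside the shares over all 1590 genes, and no difference between lists was tested. Of 12 Wfdc genes 2 units above the WT vas deferens, 2 were still apart from the Hoxa-null and 1 from the compound Hoxa-null library, against 10 from the Hoxd-null and 11 from the compound Hoxd-null library. Of 20 beta-defensins, 10 were still apart from the Hoxa-null, 11 from the compound Hoxa-null, 20 from the Hoxd-null and 19 from the compound Hoxd-null library. Of 18 sperm-coating genes the numbers were 8, 5, 18 and 17, and of 8 clear cell genes 3, 2, 8 and 8. For the spermatid and sperm list they were 13, 11, 16 and 14 of 16 genes. The median difference of the defensins was 3.88 from the WT, 1.29 from the Hoxa-null, 1.52 from the compound Hoxa-null, 3.51 from the Hoxd-null and 2.81 from the compound Hoxd-null vas deferens. For smooth muscle genes the medians were -1.65, -0.63, -0.49, -1.90 and -1.16, so that the muscle list was also nearer to the epididymis in both Hoxa-null libraries. The smooth muscle list thus moved with the beta-defensins, and the part of muscle content in the secretory lists was not tested. The clear cell list did not follow that order. Its medians over all 19 measured genes were 1.27, 1.16, 0.92, 1.30 and 0.74, nearest to the epididymis in the compound Hoxd-null library. Neither did adipocyte genes follow it, at -1.23, -2.97, -3.56, -1.41 and -3.54, nor skeletal muscle genes, at -2.45, -3.23, -2.98, 1.11 and 0.80.

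**Figure D4:**
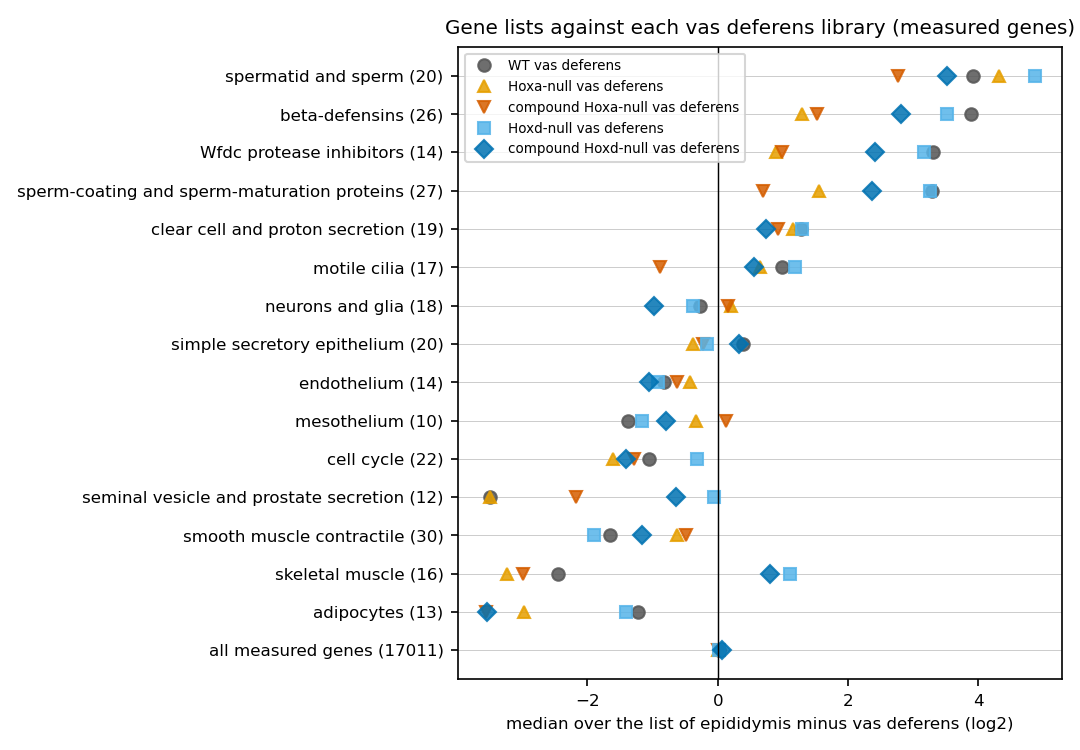
Median over the measured genes of each list (number in brackets) of the epididymis minus each of the 5 vas deferens libraries, in log2 units. For the beta-defensins the Hoxa-null symbols at 1.29 and 1.52 lie left of the others at 2.81 to 3.88, and for smooth muscle genes they lie nearest to 0, at -0.63 and -0.49.

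The genotypes were also compared over the members themselves, where the rule keeps every vas deferens 2 or more units from the epididymis. It bounds the vas deferens values from 1 side only. The median of mutant minus WT vas deferens over the 434 high members was 0.35 for the Hoxa-null, 0.97 for the compound Hoxa-null, -0.0016 for the Hoxd-null and 0.45 for the compound Hoxd-null library, against medians between 0.00 and 0.02 over all measured genes. In the compound Hoxa-null library 212 high members (48.8%) stood 1 or more units above the WT vas deferens and 51 (11.8%) below, beside 14.1% and 8.37% of all measured genes. Over the 178 low members the medians were -0.43, -0.48, 0.06 and -0.0044. The range among the 5 vasa deferentia was wider for members, with a median of 2.23 for high and 1.72 for low members, against 0.79 for all measured genes. The same vas deferens values chose the members, so these ranges and the shares above are no separate readout. Of the 434 high members, 275 had no library at the floor, and near the floor a few reads move a value far. How much the choice widened the ranges was not tested. After Car4 the widest ranges among named high members were those of Mep1a, a membrane metalloprotease (6.77), Prm2, and Cyp17a1 (5.86). Mep1a stood at 6.19 against -4.60, 0.53, 2.17, -2.31 and -0.53. Among low members they were those of the steroid hydroxylase Cyp21a1 (5.05), the Notch target Hes5 (4.90) and the paraoxonase Pon1 (4.65). Hes5 stood at -6.68 against 1.50, -2.76, -1.36, 2.13 and 1.36, lowest in both Hoxa-null vasa deferentia. The epididymis stood at the floor for Hes5 and Pon1. Their lowest vas deferens had 15.1 and 4.89 normalised reads, so these gaps rest on low counts. In all, 19 low members had the epididymis, the shallowest library, at the floor.

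The female libraries gave a readout that the rule did not use. There the WT oviduct was set against the uteri of the same 5 genotypes, likewise with 1 pooled library each. Per the file headers, the oviduct was sequenced in the same run as the epididymis, in a different lane. All 5 uteri were in the other run, as were all vasa deferentia but the compound Hoxd-null. The run thus cannot be told apart from the tissue in the female set, and its part in the shares below was not tested. Of 15738 genes measured in both sexes, 639 (4.06%) were 2 or more units higher in the oviduct than in all 5 uteri and 95 (0.604%) lower. Of 198 high members measured in both, 49 (24.7%) were also higher in the oviduct and 5 (2.53%) lower. Of 148 low members, 15 (10.1%) were also lower in the oviduct and 12 (8.11%) higher. The 49 shared genes were 7.67% of the genes higher in the oviduct, and the 15 shared low genes were 15.8% of those lower in it. With 1 library per tissue, none of these shares was tested.

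The officially named genes with the widest gaps in both sets follow. Dnahc11, a dynein of motile cilia, was 5.64 above the median vas deferens and 8.35 above the median uterus. The corresponding differences were 6.02 and 6.31 for Ccdc162, 5.32 and 5.34 for the mucin Muc3, 4.32 and 6.68 for the microvillar myosin Myo7b, 4.62 and 7.82 for Morn3 and 3.73 and 5.94 for the GABA receptor subunit Gabbr2. Of 17 measured motile cilia genes, Dnahc11 and Dnahc9 were epididymis-high, and the list median was 0.70, so most of that list did not share their difference. Low in both were Semg1 (-5.90 from the median vas deferens and -9.62 from the median uterus), Sprr2f (-6.13 and -6.18), Akr1b7 (-4.86 and -9.25), Svs5 (-4.90 and -7.24), Pate4 (-4.25 and -6.11) and Slc5a1 (-3.26 and -5.09). Car4 was high in the epididymis but differed by -3.67 from the median uterus in the oviduct. The folate receptor Folr1 and the sulfotransferase Hs6st2 were low in the epididymis, by -5.21 and -3.86, and high in the oviduct, by 2.95 and 4.05.

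**Figure D5:**
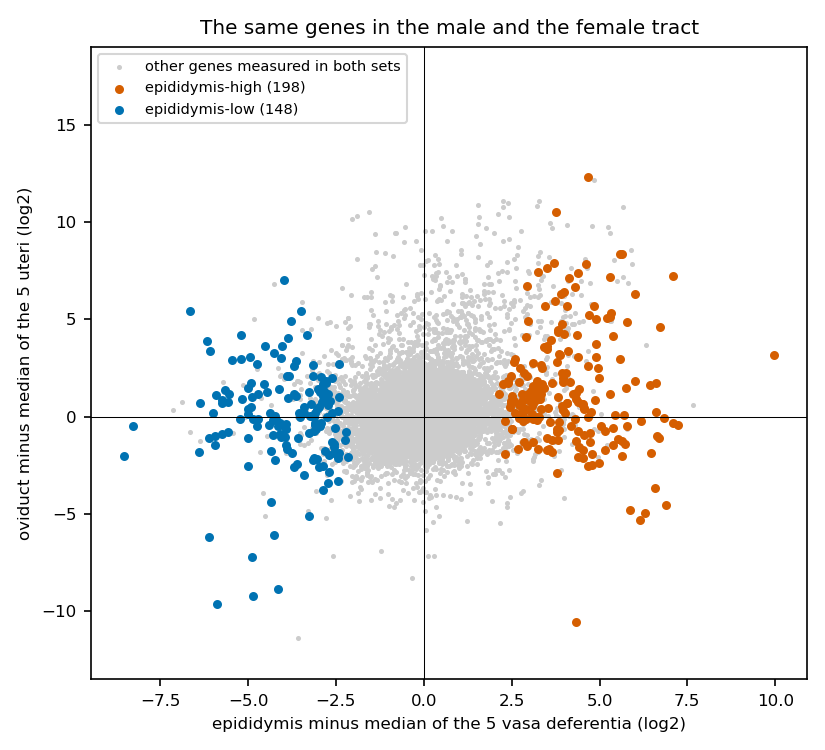
Difference of the epididymis from the median of the 5 vasa deferentia (horizontal) and of the oviduct from the median of the 5 uteri (vertical), in log2 units, for genes measured in both sexes. The 198 high members (orange) and 148 low members (blue) lie both above and below 0 on the vertical axis, with Npy at 9.98 on the horizontal axis.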

How the data were processed

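RNA was sequenced from 12 libraries, each pooled from 3 mice, of which the 6 male libraries were compared here and the 6 female libraries served as a further readout. Per the labels' protocols, Qiagen RNeasy columns were used on fresh tissue and libraries were of the Illumina TruSeq kind. The aligner TopHat and the build mm9 are named per the submitters' processing notes. How reads were counted and normalised, and on which annotation, is not given in the sources used here. The authors deposited log2 values for 31669 genes per male library, which have a median of 0 over the 6 libraries of a sex for each gene, so levels and depth in reads are unknown. The spacing of values above the floor gave the worth of a single read in each library, and reads had been counted in parts of 1/50.

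Values were used as deposited, matched by Gene ID, with no pseudocount (Python 3.11, numpy 2.4.6, pandas 2.3.3, matplotlib 3.10.9). The level of a gene was read where a library stood at the floor, which was possible for 637 of 17011 measured genes. Low values move in coarse steps and no interval for counting error was computed. With 1 library per group no test was made. In simulated data the procedure recovered the steps, and the calls of changes well above the threshold in genes with many reads. Calls near the threshold or at low counts were not covered by the simulation. Named genes were the 15 officially named genes with the widest gap in each direction, up to 6 per list by difference from the median vas deferens, the Hox members, the largest runs within 100 kb, and the 6 widest in the female set and in the range among vasa deferentia; the Riken testis clones and the genes Defb30, Defb42, Adam7, Atp6v1b1, Wfdc3, Tcp11, Prph, Gap43, Tnnc2 and the mutated Hox genes were added after values were seen. Symbols shared by more than 1 measured gene were not named. The members and the 44 gene lists were chosen with earlier results of these data known. Alternatives were other thresholds, minimums, scalings and reference libraries. A few results for single genes are left out of the text.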

Additional observations from a re-analysis of the deposited data

How the results depend on the processing

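Counts of 434 high and 178 low genes became 978 and 613 at a threshold of 1 log2 unit, which 5.75% and 3.6% of measured genes passed, and 223 and 62 at 3 units. They were 1590 and 677 against the WT vas deferens alone, 1315 and 597 against the median of the 5, and 1481 and 829 against the compound Hoxd-null library, which shared the run of the epididymis. Leaving out each vas deferens in turn gave 443 to 751 high genes, the upper value without the compound Hoxa-null library, and 193 to 216 low genes. Without genes that had a library at the floor, 275 high genes were left. At 1 unit the lists held 11 sperm-coating, 7 clear cell and 2 Hox genes higher, and 7 adipocyte and 1 smooth muscle gene lower. Against the WT vas deferens alone, they held 16 sperm, 20 beta-defensin, 18 sperm-coating, 8 clear cell and 6 Hox genes higher, and 2 beta-defensin, 2 clear cell and 6 smooth muscle genes lower. Left-out libraries gave 4 to 8 high sperm-coating genes. With the WT uterus alone, or with 1 unit in the oviduct, high members lower in the oviduct came to 18 and 13, low members higher in it to 24 and 24, and low members lower in it to 27 and 28. The other alternatives, among them other minimums and medians of library differences set to 0, kept these counts within 1.5 times. The cause was not tested beyond what each construction sets. Values as deposited were those used, and a pseudocount could not apply to log2 values. No paired analysis was possible because each group had 1 library.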
